A study of Homo sapiens with 24 samples.

Results

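The claudins are membrane proteins of the tight junction, the belt that closes the gap between neighbouring epithelial cells. Each cell combines several of them: sealing claudins narrow the gap, and channel-forming claudins let chosen ions or water pass between cells. Along the nephron every segment has its own mixture, with CLDN2 in the proximal tubule, the segment from which clear cell renal cell carcinoma (ccRCC) is thought to arise. Here 10 claudin genes, CLDN1, CLDN2, CLDN3, CLDN4, CLDN7, CLDN10, CLDN11, CLDN12, CLDN14 and CLDN16, were followed across 24 RNA-seq libraries. They are 10 of the 26475 genes measured and 10 of the 24 claudin genes among them. The set was chosen by name, led by CLDN2, and selected on expected counts that are far lower for CLDN2 where PAX8, a transcription factor of the renal epithelial lineage, is targeted. Values of shPAX8 against sgNTC18 libraries therefore entered the choice, and for the 10 genes that contrast is given below as a description, without tests.

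The cells were 786-M1A and OS-LM1, both metastatic ccRCC cell lines that lack functional VHL and carry a luciferase transgene. Each line has 4 replicates with shPAX8-1 and 4 with shPAX8-2, RNA interference constructs against PAX8, and 4 with sgNTC18, a non-targeting guide RNA, which makes 6 groups. All libraries were made from cells cultured in RPMI with serum. The study's methods describe the shRNA plasmids as doxycycline-inducible. The kind of construct and the loss of PAX8 cannot be told apart in shPAX8 against sgNTC18. Nothing in the labels says that the replicates came from separate cultures, so p-values measure the spread between these libraries, which may be technical. Fewer cells of a kind and less RNA per cell cannot be told apart in bulk RNA.

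Libraries held between 11634419 and 52059375 RSEM expected counts in all. In 786-M1A cells with shPAX8-1, replicates 1 and 2 and replicates 3 and 4 formed separate pairs: the chi-square per gene was 14.1 and 3.73 within the pairs and 44.7 to 77.4 across them. The same pairs stood apart less widely with shPAX8-2 in 786-M1A cells, at 3.96 and 11.7 within and 14.9 to 19.2 across. Summed CPM of 9 epithelial and renal carcinoma markers was 9908 to 10250 with sgNTC18 and 8160 to 9144 with shPAX8 in 786-M1A cells, and 9659 to 12870 and 5147 to 7095 in OS-LM1 cells. The 9 were PAX8, PAX2, CA9, NDUFA4L2, KRT8, KRT18, CDH2, CDH6 and VIM, so the sum includes the targeted gene itself. Of these, CA9 and NDUFA4L2, genes switched on by HIF, were below 1 CPM in every 786-M1A library. NDUFA4L2 was also below 1 CPM in every OS-LM1 library with sgNTC18. The endothelial markers PECAM1, VWF and CDH5 were below 1 CPM in all 24 libraries, as were PTPRC and CD3E among 4 leukocyte markers. The leukocyte sum, made by CD68 and LYZ, was 185.3 to 217.3 CPM with sgNTC18 and 201.8 to 402.5 with shPAX8 in 786-M1A cells, and 78.0 to 92.3 and 192.7 to 360.5 in OS-LM1 cells. The sum of 4 fibroblast markers was 0.442 to 1.56 and 3.24 to 8.67 CPM in 786-M1A cells and 0.586 to 0.946 and 4.13 to 19.1 in OS-LM1 cells. PDGFRA was below 1 CPM in every library. In 786-M1A cells LUM alone reached 1 CPM in any library. In OS-LM1 cells COL3A1 alone did with shPAX8-2, and DCN, LUM and COL3A1 did with shPAX8-1. The sum of the 9 markers, PAX8 included, was thus lower in every shPAX8 library of both lines. The fibroblast sum was higher in each, though not through the same genes in every group. The part of these markers in the claudin values was not tested.

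The guide strands of both constructs are shown because the construct is what separates the shPAX8 groups of a line, with the seed, bases 2 to 8, in capitals.
shPAX8-1: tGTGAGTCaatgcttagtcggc
shPAX8-2: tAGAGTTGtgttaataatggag
On GRCh38 with GENCODE v44 models, shPAX8-1 pairs with a site in the coding part of PAX8 (chr2:113241690-113241711, minus strand, exon 7) that is found in 10 PAX8 transcripts. The site of shPAX8-2 lies in the 3′ UTR (chr2:113218122-113218143, minus strand, exon 12) and is found in 7 PAX8 transcripts.

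PAX8 itself fell with each construct in each line. In 786-M1A cells it stood at 292, 393, 360 and 319 CPM with sgNTC18. It was at 22.9, 21.9, 15.2 and 14.8 CPM with shPAX8-1. It was at 41.4, 45.5, 42.6 and 40.0 CPM with shPAX8-2. No shPAX8 library reached the sgNTC18 range, and PAX8 was left at 5.49% ± 1.27 and 12.4% ± 0.694 of the sgNTC18 mean (SD, n = 4). In OS-LM1 cells PAX8 was 244.7 to 279 CPM with sgNTC18 and was left at 30.1% ± 5.02 with shPAX8-1 and 30.5% ± 5.28 with shPAX8-2 (SD, n = 4). For PAX8 the log2 fold change of shPAX8 against sgNTC18 was -3.58 ± 0.12 (SE; edgeR adjusted p = 5.6e-12) in 786-M1A and -1.73 ± 0.10 (adjusted p = 9.4e-12) in OS-LM1.

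CLDN2, which forms a pore for cations and water in the proximal tubule, had the widest range of the 10 genes. It lies on chromosome X (GRCh38.p14, chrX:106900164-106930861, plus strand). In OS-LM1 cells with sgNTC18 it was at 438, 390, 391 and 390 CPM. With shPAX8-1 it was at 11, 10.3, 10.7 and 11.8 CPM, and with shPAX8-2 at 15.5, 13.5, 16.8 and 14.3 CPM. The sgNTC18 libraries lay far above all 8 shPAX8 libraries, whose highest value was 16.8. In 786-M1A cells CLDN2 was lower from the start, at 17.5, 17.5, 18.9 and 16.6 CPM with sgNTC18. It fell to 0.366, 0.0942, 0.120 and 0.552 CPM with shPAX8-1 and to 0.284, 0.594, 1.24 and 1.20 CPM with shPAX8-2. These last values rest on 2 to 10 and 5 to 18 counts per library, against 316 to 585 with sgNTC18. With sgNTC18, 786-M1A cells thus held CLDN2 at a level that overlapped the top of the range of OS-LM1 cells with shPAX8.

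As a description, the log2 fold change of CLDN2 in shPAX8 against sgNTC18 libraries was -5.18 ± 0.27 (SE) in 786-M1A and -4.98 ± 0.07 in OS-LM1. Of its sgNTC18 mean, CLDN2 kept 1.61% ± 1.23 and 4.71% ± 2.66 (SD, n = 4) in 786-M1A with shPAX8-1 and shPAX8-2, and 2.73% ± 0.165 and 3.74% ± 0.361 in OS-LM1. The difference of these shares between the lines was not tested.

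**Figure D1:**
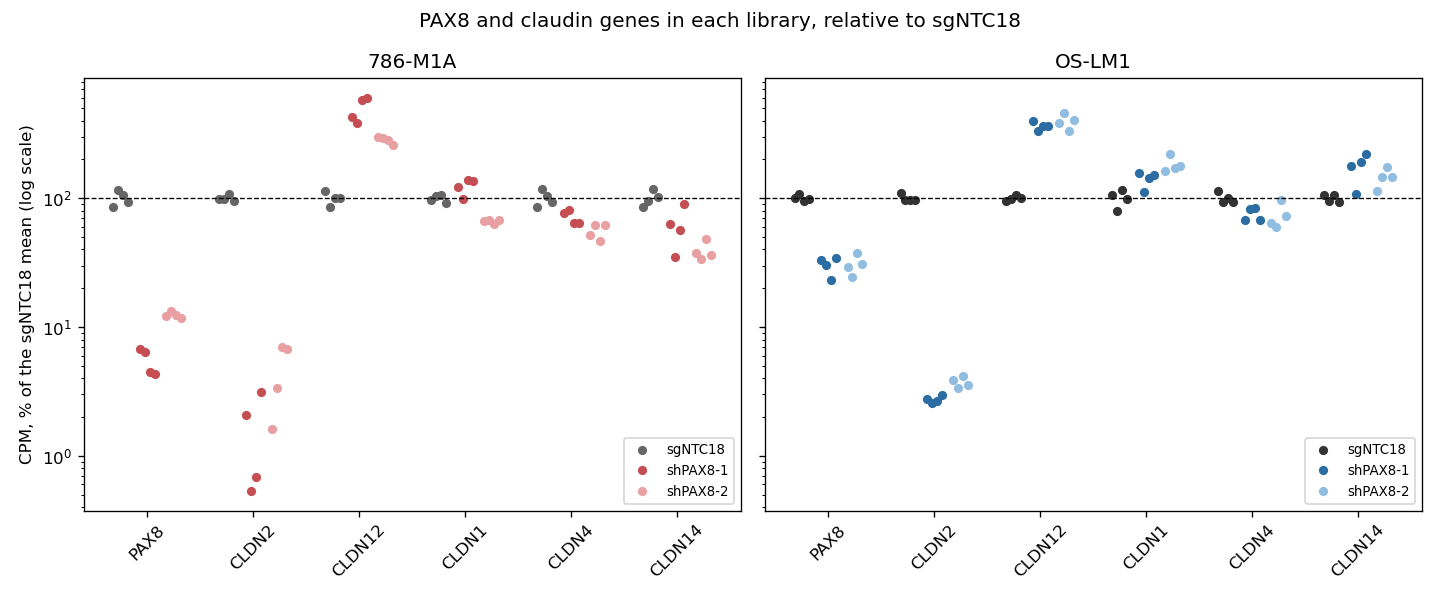
CPM of PAX8 and 5 claudin genes in each library as a percentage of the mean of the 4 sgNTC18 libraries of the same line (log scale, dashed line at the sgNTC18 mean), with 786-M1A on the left and OS-LM1 on the right and 1 point per library. PAX8 is left at 5.49% to 12.4% in 786-M1A and at 30.1% to 30.5% in OS-LM1 on average, CLDN2 at 1.61% to 4.71% and 2.73% to 3.74%, and CLDN12 lies above its sgNTC18 range in every shPAX8 library.

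CLDN12 moved the other way. It is a claudin without the usual tail that binds scaffold proteins, and has been linked to calcium transport. In 786-M1A cells CLDN12 was at 66.1, 49.8, 57.9 and 58.4 CPM with sgNTC18. With shPAX8-1 it was at 246, 222, 335 and 347 CPM, and with shPAX8-2 at 172, 169, 165 and 151 CPM. Every shPAX8 library lay above every sgNTC18 library, and within shPAX8-1 the pair of replicates 3 and 4 lay above the pair of replicates 1 and 2. In OS-LM1 cells it was at 41.5, 42.7, 46.2 and 43.5 CPM with sgNTC18, at 172, 145, 158 and 158 with shPAX8-1 and at 165, 200, 145 and 176 with shPAX8-2. The groups of shPAX8 and sgNTC18 did not overlap there either. The log2 fold change was 1.92 ± 0.13 (SE) in 786-M1A and 1.91 ± 0.09 in OS-LM1. CLDN12 (chr7:90403461-90415954, plus strand) shares annotated exon bases on its own strand with CDK14 and GTPBP10, so some of its reads could be assigned to them or theirs to it. CDK14 was at 19.7 ± 2.60 CPM with sgNTC18 and at 19.3 ± 3.41 and 16.8 ± 1.55 with shPAX8-1 and shPAX8-2 in 786-M1A (SD, n = 4). GTPBP10 was at 17.3 ± 3.27, 40.3 ± 15.0 and 17.5 ± 3.07 CPM in the same groups. In OS-LM1 cells CDK14 was at 29.3 ± 1.47, 54.6 ± 7.21 and 47.4 ± 6.12 CPM and GTPBP10 at 17.6 ± 1.27, 39.5 ± 6.76 and 31.7 ± 8.19. All shPAX8 libraries of OS-LM1 lay above the sgNTC18 range for both partners, the direction of CLDN12. On average both partners were lower than CLDN12 in all 6 groups.

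CLDN1 and CLDN4 are sealing claudins. CLDN1, on chromosome 3 (chr3:190305707-190322446, minus strand), was at 53.3, 56.8, 58.4 and 50.4 CPM in 786-M1A cells with sgNTC18, at 66.2, 53.9, 75.3 and 74.5 with shPAX8-1 and at 36.4, 37.2, 34.7 and 37.3 with shPAX8-2. The shPAX8-2 libraries lay below the sgNTC18 range, and 3 of the 4 shPAX8-1 libraries above it. Pooled over both constructs the log2 fold change against sgNTC18 was -0.12 ± 0.10 (SE), made of 0.32 ± 0.11 with shPAX8-1 and -0.57 ± 0.11 with shPAX8-2. In OS-LM1 cells CLDN1 was at 161, 122, 178 and 150 CPM with sgNTC18, at 240, 169, 217 and 233 with shPAX8-1 and at 247, 335, 264 and 271 with shPAX8-2. There all shPAX8 libraries but 1 lay above the sgNTC18 range, and the log2 fold change was 0.67 ± 0.11. CLDN4, which in the kidney is best known from the collecting duct, lies on chromosome 7 (chr7:73830996-73832690, plus strand). It was at 87.5, 121, 106 and 95.4 CPM in 786-M1A cells with sgNTC18 and at 47.9 to 82.5 in the 8 shPAX8 libraries, all of which were lower. In OS-LM1 cells CLDN4 was at 40.5 to 49.3 CPM with sgNTC18 and 26.2 to 42.3 with shPAX8, ranges that overlapped. Its log2 fold change was -0.64 ± 0.11 and -0.43 ± 0.11.

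The remaining 6 genes were low. CLDN7, a claudin of the distal nephron and collecting duct, was at 1.57 to 2.65 CPM in the 12 OS-LM1 libraries and at 0 to 5 counts in each 786-M1A library. CLDN10, whose isoforms carry anions in the proximal tubule or cations in the thick ascending limb, was at 0.225 to 1.40 CPM in OS-LM1 cells and at 0 to 6 counts in 786-M1A libraries. CLDN14 and CLDN16 act on calcium and magnesium transport in the thick ascending limb. CLDN14 was at 2.18 to 3.04 CPM in 786-M1A cells with sgNTC18 and at 0.863 to 2.32 with shPAX8. In OS-LM1 cells it was at 0.693 to 0.789 CPM with sgNTC18 and higher, at 0.794 to 1.63, in every shPAX8 library. CLDN14 rested there on 23 to 28 counts per library with sgNTC18, 15 to 43 with shPAX8-1 and 12 to 62 with shPAX8-2. The gap between 0.789 and 0.794 CPM is small beside the counting error of such values. Its log2 fold change against sgNTC18 was -1.03 ± 0.22 (SE) in 786-M1A and 0.67 ± 0.24 in OS-LM1. CLDN16 was at 0.171 to 0.942 CPM in 786-M1A cells and at 0.512 to 1.75 in OS-LM1 cells, and its span on chromosome 3 (chr3:190290361-190412138, plus strand) overlaps CLDN1 on the opposite strand. CLDN3, a sealing claudin 60726 bases from CLDN4, stayed at 19 counts or fewer in every library. CLDN11, known from myelin and the testis, stayed at 17 counts or fewer.

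**Figure D2:**
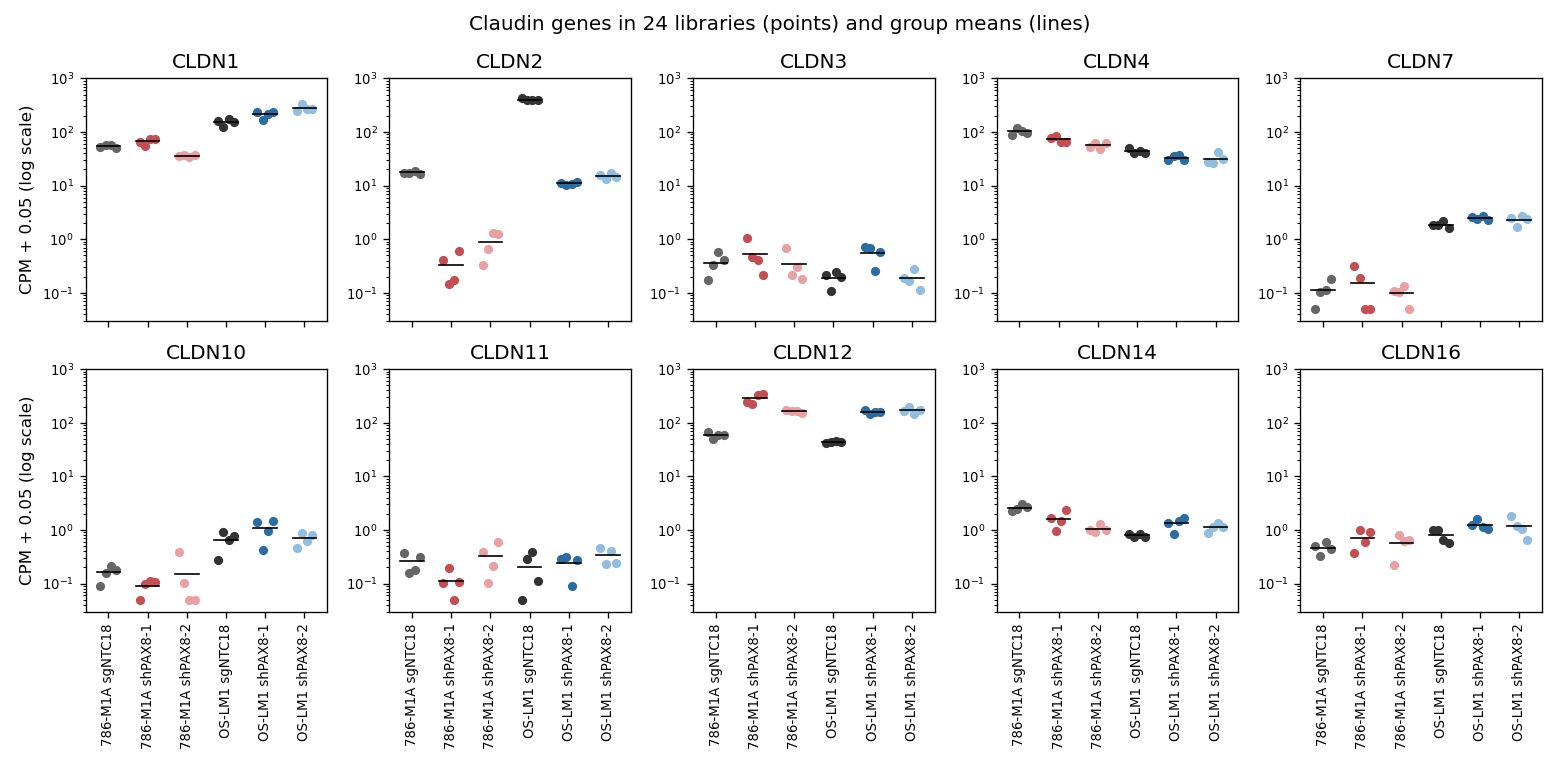
CPM plus 0.05 on a log scale for each of the 10 claudin genes in the 24 libraries, with 4 points and a line at the mean for each of the 6 groups. CLDN2 spans from 0.0942 CPM in 786-M1A cells with shPAX8-1 to 438 CPM in OS-LM1 cells with sgNTC18, CLDN1, CLDN4 and CLDN12 stay above 20 CPM in all groups, and CLDN7 and CLDN10 are near the lower edge in 786-M1A cells only.

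After the filter on low counts, 6 of the 10 genes could be compared in 786-M1A and 8 in OS-LM1. CLDN3 and CLDN11 passed in neither line, and CLDN7 and CLDN10 passed in OS-LM1 cells only. CLDN2 passed in 786-M1A cells through its sgNTC18 libraries, and in a fit of the shPAX8 libraries alone it did not pass there.

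Levels of different genes were compared by TPM, which takes transcript length into account. In 786-M1A cells with sgNTC18 the order was led by CLDN4 at 104.6 ± 12.6 TPM (SD, n = 4), followed by CLDN12 at 29.8 ± 4.35 and CLDN1 at 29.4 ± 1.84, whose ranges overlapped, then CLDN2 at 11.2 ± 0.659 and CLDN14 at 3.03 ± 0.384. The other 5 genes were below 1 TPM on average and each overlapped the next in the order. In OS-LM1 cells with sgNTC18 CLDN2 came first at 241.8 ± 14.3 TPM, then CLDN1 at 77.7 ± 11.4, CLDN4 at 42.2 ± 3.78, CLDN12 at 21.1 ± 0.871, CLDN7 at 2.22 ± 0.270 and CLDN14 at 0.775 ± 0.0819, with no overlap between neighbours. CLDN10, CLDN16, CLDN3 and CLDN11 followed with overlapping ranges. With shPAX8 the first place went to CLDN12 in 786-M1A cells, at 135.7 ± 27.4 TPM with shPAX8-1 and 77.3 ± 5.50 with shPAX8-2. In OS-LM1 cells it went to CLDN1, at 110.0 ± 9.07 and 138.6 ± 18.6 TPM, with CLDN12 second at 77.6 ± 3.64 and 81.2 ± 11. In all 4 shPAX8 groups the first 3 places were held by CLDN1, CLDN4 and CLDN12, and neighbours among them did not overlap.

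The make-up of the claudin pool was read as each gene's share of the summed TPM of all 24 claudin genes. CLDN2 made up 61.8% ± 2.15 (SD, n = 4) of the pool in OS-LM1 cells with sgNTC18 and 2.82% ± 0.176 and 3.34% ± 0.541 with shPAX8-1 and shPAX8-2. In 786-M1A cells it was 5.66% ± 0.407 with sgNTC18 and below 0.5% in each shPAX8 library. CLDN12 went from 15.1% ± 2.84 to 50.8% ± 6.94 and 42.7% ± 3.20 in 786-M1A, and from 5.39% ± 0.417 to 32.8% ± 0.948 and 30.3% ± 2.55 in OS-LM1. The whole pool was 391.6 ± 23.0 TPM in OS-LM1 cells with sgNTC18 and 236.9 ± 8.79 and 267.5 ± 23.1 with shPAX8-1 and shPAX8-2. In 786-M1A cells it was 198.9 ± 12.6, 265.5 ± 18.1 and 181.1 ± 10.7 TPM in the same order. The 10 genes held 98.5% to 98.8% of the pool on average in the OS-LM1 groups and 83.7% to 91.1% in the 786-M1A groups.

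**Figure D3:**
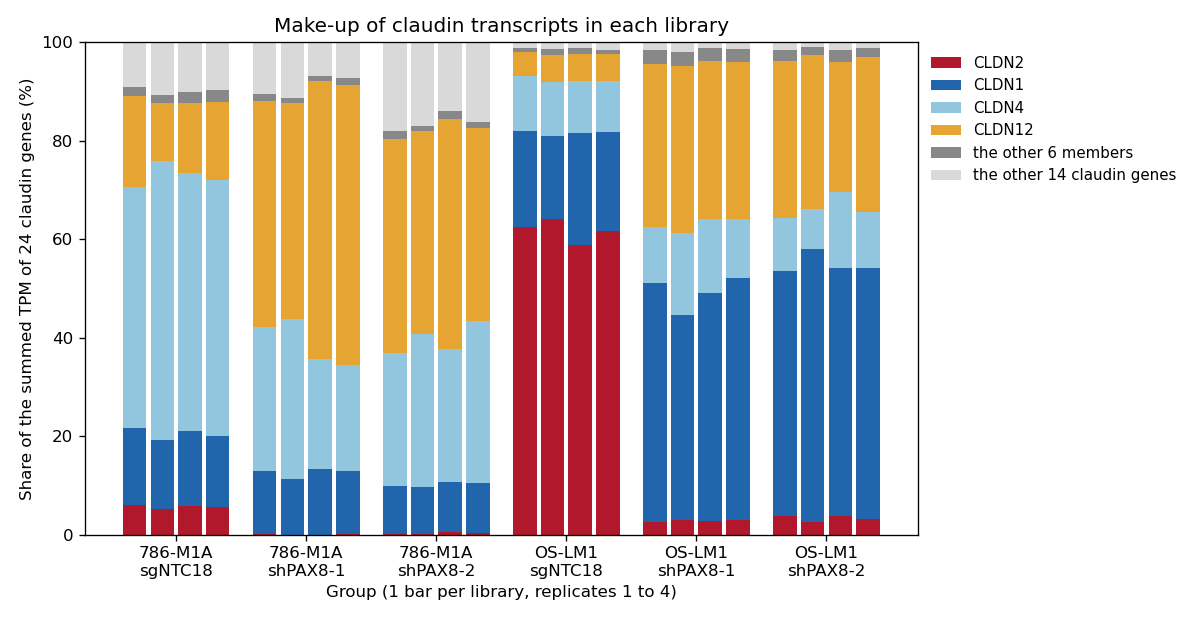
Share of the summed TPM of 24 claudin genes held by CLDN2, CLDN1, CLDN4, CLDN12, the other 6 members and the other 14 claudin genes, as stacked bars from 0 to 100% with 1 bar for each library. CLDN2 fills 58.9% to 64.0% of the bars of OS-LM1 cells with sgNTC18 and at most 6.08% of any other bar, and CLDN12 takes a larger share with shPAX8 than with sgNTC18 in both lines.

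Outside the 10 genes, CLDN15 had the highest TPM of the other claudins with sgNTC18, at 9.12 ± 1.81 in 786-M1A and 3.33 ± 0.246 in OS-LM1 cells (SD, n = 4). Of the others, 2 were present in 786-M1A cells and near 0 in OS-LM1 cells. CLDN6, a claudin of embryonic tissue, was at 3.68 ± 0.590 CPM with sgNTC18, 8.54 ± 1.07 with shPAX8-1 and 10.9 ± 1.48 with shPAX8-2 in 786-M1A (SD, n = 4), and at 4 counts or fewer in each OS-LM1 library. CLDN9 was at 1.09 ± 0.488, 2.18 ± 0.795 and 4.72 ± 1.39 CPM in 786-M1A and at 5 counts or fewer in each OS-LM1 library. Of the 14 other claudin genes 6 passed the filter in 786-M1A and 4 in OS-LM1. In shPAX8 against sgNTC18, CLDN6 and CLDN9 rose in 786-M1A by 1.41 ± 0.15 (adjusted p = 5.4e-07) and 1.61 ± 0.30 (adjusted p = 0.00018) on the log2 scale, and CLDN23 fell by 1.25 ± 0.17 (adjusted p = 1e-05). In OS-LM1 CLDN23 rose by 0.78 ± 0.29 (adjusted p = 0.019), and CLDN15 and CLDN19 fell by 0.65 ± 0.18 and 1.25 ± 0.38 (adjusted p = 0.0037 and 0.0065). There CLDN19 rested on 11 to 29 counts per library with sgNTC18, 2 to 6 with shPAX8-1 and 6 to 11 with shPAX8-2. CLDN23 rested on 12 to 24, 16 to 30 and 11 to 37 counts in the same groups.

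The promoters of CLDN2 and CLDN12 are shown because these genes moved furthest in opposite directions. RefSeq (GRCh38.p14) promoters, 250 bases before to 50 after a start site, were at hand for all 10 genes, 17 in all. Capitals mark TCATGC, letters that occur in the recognition motif of PAX2, PAX5 and PAX8. This motif was chosen after the sequences had been read.
CLDN2, first start site (chrX:106899914-106900213, plus strand): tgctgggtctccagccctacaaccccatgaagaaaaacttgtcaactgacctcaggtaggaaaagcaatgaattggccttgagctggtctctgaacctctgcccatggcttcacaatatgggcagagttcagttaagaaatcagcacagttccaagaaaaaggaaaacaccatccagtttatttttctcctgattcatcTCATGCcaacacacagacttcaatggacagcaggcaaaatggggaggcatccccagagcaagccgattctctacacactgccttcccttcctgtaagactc
CLDN2, second start site (chrX:106918110-106918409, plus strand): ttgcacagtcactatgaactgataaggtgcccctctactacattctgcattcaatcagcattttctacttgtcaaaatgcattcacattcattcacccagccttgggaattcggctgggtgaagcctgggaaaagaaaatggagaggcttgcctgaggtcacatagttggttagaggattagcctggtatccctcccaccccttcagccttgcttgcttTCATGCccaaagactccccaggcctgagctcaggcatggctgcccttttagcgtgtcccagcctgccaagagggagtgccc
CLDN12 (chr7:90403211-90403510, plus strand): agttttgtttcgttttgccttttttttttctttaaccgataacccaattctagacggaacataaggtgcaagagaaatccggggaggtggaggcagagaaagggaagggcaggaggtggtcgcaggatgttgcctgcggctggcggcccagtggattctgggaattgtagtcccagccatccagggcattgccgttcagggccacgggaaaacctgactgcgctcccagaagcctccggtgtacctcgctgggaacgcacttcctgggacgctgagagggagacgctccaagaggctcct
The match starts 51 bases before the first CLDN2 start site and 31 before the second. On either strand TCATGC was found in 3 of the 17 promoters, both of CLDN2 and 1 of CLDN10, and in 7.71% of all 35116 promoters in the table. The HIF cores ACGTG and GCGTG were in 3 and 8 of the 17 and in 21.4% and 36.5% of all. None of the 3 was found in the CLDN12 window. A match describes letters and does not show that a factor binds.

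The constructs were compared with each other because the choice of genes did not rest on their difference. In 786-M1A cells 3 of the 6 genes tested were higher with shPAX8-1 than with shPAX8-2 and 1, CLDN2, was lower (edgeR adjusted p under 0.05), where 24.2% of all genes tested were higher and 22.9% lower. CLDN1 was 1.85-fold higher (log2 0.89 ± 0.11 SE, edgeR adjusted p = 4.2e-05) and CLDN12 1.75-fold higher (0.81 ± 0.14, adjusted p = 0.00043), and for both the 4 libraries of one construct lay above the 4 of the other. CLDN4 was 1.29-fold higher (0.36 ± 0.13, adjusted p = 0.033). CLDN2 was lower with shPAX8-1 (log2 -1.47 ± 0.50, adjusted p = 0.025), with overlapping groups and 2 to 18 counts per library, and PAX8 was lower too (-1.18 ± 0.15, adjusted p = 4e-05). CLDN14 and CLDN16 did not pass the test (0.65 ± 0.29 and 0.36 ± 0.45, adjusted p = 0.074 and 0.53). The calls of CLDN2 and CLDN4 were lost without single libraries. CLDN2 gave -1.15 to -1.25 (adjusted p = 0.065 to 0.085) without any 1 of shPAX8-1 replicates 2 and 3 and shPAX8-2 replicates 3 and 4. CLDN4 gave 0.28 to 0.32 (adjusted p = 0.066 to 0.11) without any 1 of shPAX8-1 replicates 1 and 2 and shPAX8-2 replicates 1 and 3. CLDN4 also missed the threshold with no filter beyond 1 count (0.35, adjusted p = 0.057) and in a fit of both constructs' libraries alone (0.36, adjusted p = 0.051), in which CLDN2 was not tested. CLDN14 passed without shPAX8-1 replicate 2 (0.86, adjusted p = 0.015). With only replicates 3 and 4 of shPAX8-1, the pair that stood apart from replicates 1 and 2, CLDN1 and CLDN12 gave 1.03 and 1.05 and stayed past the threshold, CLDN2 and CLDN4 gave -1.18 and 0.20 (adjusted p = 0.076 and 0.22), and CLDN14 passed it at 0.92 (adjusted p = 0.014). With only replicates 1 and 2 the values of CLDN1, CLDN12, CLDN2 and CLDN4 were 0.73, 0.51, -1.78 and 0.50, all past the threshold. The log2 fold change of all genes in this comparison ran with GC content (Spearman's rho -0.557 across 13048 genes, which are not independent), and with that trend removed CLDN1 gave 0.59, CLDN12 0.37, CLDN4 0.76 and CLDN14 1.05, each past the threshold.

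In OS-LM1 cells, where both constructs left PAX8 at the same level within error (log2 -0.05 ± 0.12, adjusted p = 0.80), none of the 8 genes tested was higher with shPAX8-1 and 2 were lower, against 12.4% and 16.7% of all genes tested. CLDN2 was 1.40-fold lower with shPAX8-1 (log2 -0.49 ± 0.09, adjusted p = 0.00052), with 4 libraries below 4. CLDN1 was 1.33-fold lower (-0.41 ± 0.12, adjusted p = 0.015), likewise without overlap. Without shPAX8-1 replicate 2, which had the lowest CLDN1 of its group, CLDN1 gave -0.29 (adjusted p = 0.086). CLDN12 gave -0.15 ± 0.10, and CLDN4, CLDN7, CLDN10, CLDN14 and CLDN16 gave between 0.006 and 0.63, with adjusted p from 0.27 to 0.98 for the 6 genes. CLDN12 passed the threshold once the GC trend was removed (-0.21, adjusted p = 0.022).

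CLDN1 and CLDN12 differed between the lines in how they responded to the choice of construct. The interaction, the log2 difference of shPAX8-1 and shPAX8-2 in OS-LM1 minus that in 786-M1A, was -1.27 ± 0.18 (SE, edgeR adjusted p = 9.3e-06) for CLDN1 and -0.92 ± 0.17 (adjusted p = 0.00025) for CLDN12. For CLDN1 the direction itself turned, since shPAX8-1 libraries were higher than shPAX8-2 libraries in 786-M1A and lower in OS-LM1. Of the 9 genes tested 2 passed downward and 0 upward, against 14.5% and 12.7% of all 15665 genes. For CLDN2 the interaction was 1.01 ± 0.43 (adjusted p = 0.084) with edgeR, and DESeq2 gave 1.02 (adjusted p = 0.038). It passed without 786-M1A shPAX8-1 replicate 4 (1.53, adjusted p = 0.021) and without 786-M1A shPAX8-2 replicate 1 (1.32, adjusted p = 0.015). With the GC trend removed CLDN1 and CLDN12 gave -1.07 and -0.60, both still past the threshold, and CLDN4 passed it at -0.63 (adjusted p = 0.00048). PAX8 had an interaction of 1.16 ± 0.20 (adjusted p = 0.00015).

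The lines were compared first in sgNTC18 libraries. There 4 of 9 genes tested were higher in OS-LM1 and 3 were lower, against 32.0% and 31.0% of all genes tested. Since most genes differed between the lines, and since CLDN7 and CLDN10 passed the filter through OS-LM1 libraries only and so had to differ, the count is no result about the claudins. CLDN2 was 22.8-fold higher in OS-LM1 (log2 4.51 ± 0.16 SE, edgeR adjusted p = 1.1e-18), and CLDN1 2.80-fold higher (1.48 ± 0.13, adjusted p = 7.2e-11). As a description, CLDN7 had 52 to 77 counts per library in OS-LM1 and 0 to 3 in 786-M1A, and CLDN10 had 8 to 30 and 1 to 5. CLDN4 was 2.34-fold lower in OS-LM1 (-1.23 ± 0.14, adjusted p = 1.4e-08), CLDN14 3.46-fold lower (-1.79 ± 0.25, adjusted p = 5.9e-07) and CLDN12 1.34-fold lower (-0.42 ± 0.12, adjusted p = 0.0041). CLDN16 (0.83 ± 0.39, adjusted p = 0.068) and CLDN3 (-1.15 ± 0.58, adjusted p = 0.086) did not pass, although CLDN16 did without OS-LM1 replicate 4 (0.98, adjusted p = 0.043) and CLDN3 without 786-M1A replicate 1 (-1.42, adjusted p = 0.04). CLDN12 gave -0.67 with the GC trend removed. PAX8 was 1.31-fold lower in OS-LM1 (-0.39 ± 0.14, adjusted p = 0.015).

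Among shPAX8 libraries 5 of 9 genes were higher in OS-LM1 and 2 lower, against 41.7% and 41.5% of all genes tested, and CLDN7 and CLDN10 are again among the former. CLDN2 was 27.1-fold higher (log2 4.76 ± 0.17, adjusted p = 2.2e-19) and CLDN1 4.95-fold higher (2.31 ± 0.09, adjusted p = 1.8e-18). CLDN7 had 28 to 127 counts per library in OS-LM1 and 0 to 5 in 786-M1A, and CLDN10 had 6 to 37 and 0 to 6. Their fitted log2 differences, 4.95 and 3.51, rested on these few counts. CLDN7 gave 7.15 with only replicates 3 and 4 of 786-M1A shPAX8-1, both at 0 counts, and CLDN10 gave 4.56 without 786-M1A shPAX8-2 replicate 1, which held 6 counts. CLDN16 passed here at 0.92 ± 0.28 (adjusted p = 0.0038) and missed the threshold with the GC trend removed (0.56, adjusted p = 0.064). It had 6 to 20 counts per library with shPAX8-1 and 3 to 14 with shPAX8-2 in 786-M1A. In OS-LM1 it had 24 to 29 and 19 to 47, and the CPM of the shPAX8-2 groups overlapped between the lines. CLDN4 and CLDN12 were lower in OS-LM1 at -0.99 ± 0.10 (adjusted p = 5.2e-10) and -0.40 ± 0.09 (adjusted p = 0.00012), and CLDN12 gave -0.73 with the GC trend removed. CLDN14, 3.46-fold lower in OS-LM1 with sgNTC18, gave -0.06 ± 0.19 (adjusted p = 0.77), and the change between the settings was not tested for any of these genes.

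**Figure D4:**
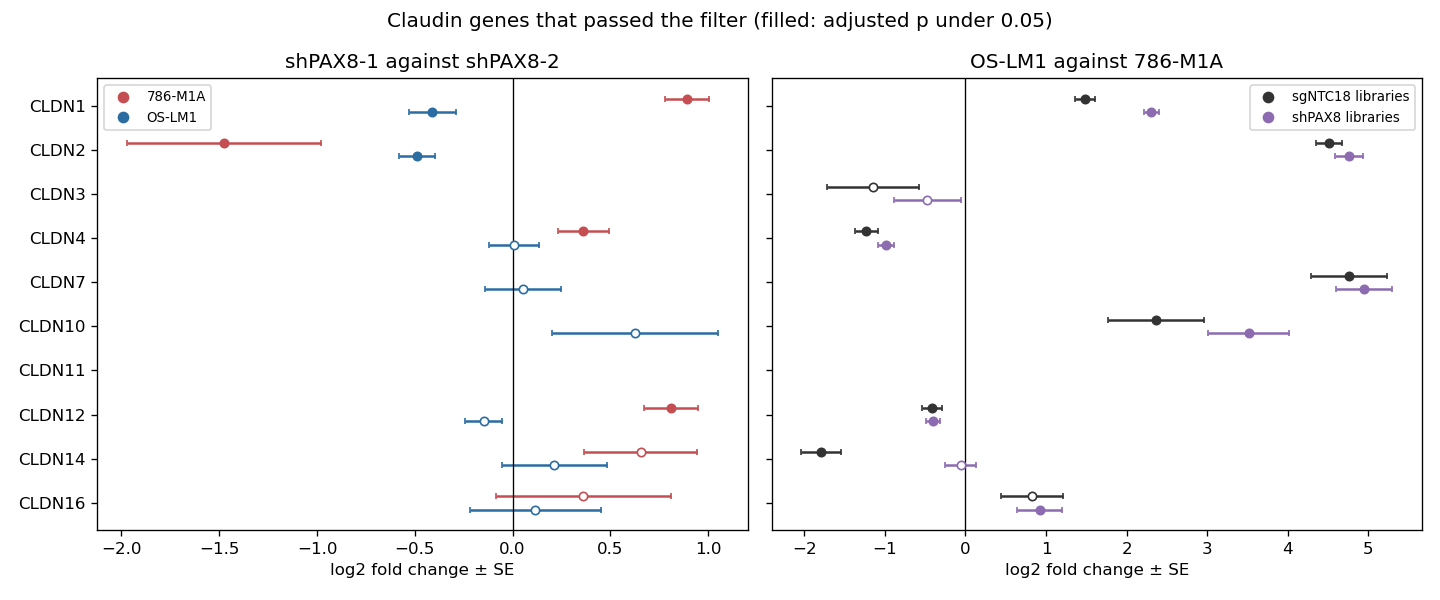
Log2 fold change ± SE of each claudin gene that passed the filter, for shPAX8-1 against shPAX8-2 in each line (left) and for OS-LM1 against 786-M1A in sgNTC18 and in shPAX8 libraries (right), with filled points at an edgeR adjusted p under 0.05. CLDN1 lies at 0.89 in 786-M1A and at -0.41 in OS-LM1 on the left, and on the right CLDN2 lies at 4.51 and 4.76. CLDN7 and CLDN10 on the right passed the filter through OS-LM1 libraries only and rest on 6 counts or fewer in each 786-M1A library.

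The other genes of the tight junction were taken from a list of scaffold, polarity and transmembrane genes, of which 33 were measured. In shPAX8 against sgNTC18 in 786-M1A cells 16 of 28 tested rose and 9 fell, where 35.7% of all 14452 genes tested rose and 34.7% fell. JAM2, an adhesion molecule of the junction, rose most (log2 2.17 ± 0.18, adjusted p = 4.4e-08), followed by the polarity gene PARD6G (1.17 ± 0.22, adjusted p = 0.00025). CRB3, which anchors the apical polarity complex, fell from 1.99 ± 0.131 CPM to 0.0387 ± 0.0260 and 0.369 ± 0.114 (SD, n = 4, log2 -3.90 ± 0.28 SE). PARD6A fell by 2.12 ± 0.41, from 15 to 31 counts per library to 0 to 9 with shPAX8-1 and 1 to 3 with shPAX8-2. Both genes passed the filter through sgNTC18 libraries only and so had to be lower with shPAX8. Their values are a description, and both are counted among the 9 that fell. Other low genes of the list passed mainly through sgNTC18 or mainly through shPAX8 libraries. JAM3 had 14 to 42 counts with sgNTC18 and 2 to 8 with each construct. MARVELD3 had 4 to 17 with sgNTC18, 11 to 24 with shPAX8-1 and 11 to 25 with shPAX8-2. Part of the counts of genes that rose and fell was therefore fixed in advance. In OS-LM1 cells 13 of 29 rose and 11 fell, against 36.4% and 37.1% of all 15049 genes. CXADR, a junctional adhesion protein, rose from 5.56 ± 0.880 CPM to 44.6 ± 5.18 and 52.5 ± 5.38 (log2 3.11 ± 0.12 SE, edgeR adjusted p = 2.2e-14), and ESAM rose by 2.10 ± 0.23 (adjusted p = 8.3e-08). LSR, a protein of tricellular contacts, fell by 1.62 ± 0.12 (adjusted p = 5.9e-10). PARD6A fell by 2.26 ± 0.31, from 30 to 63 counts per library to 5 to 15 with shPAX8-1 and 3 to 16 with shPAX8-2. It again passed the filter through sgNTC18 libraries only. The same limit holds here for JAM3, at 22 to 24 counts with sgNTC18, 6 to 7 with shPAX8-1 and 1 to 14 with shPAX8-2. In the other direction CGN had 6 to 17, 20 to 31 and 13 to 35 counts in the same groups. TJP1, the scaffold ZO-1, rose in both lines, by 0.86 ± 0.08 (adjusted p = 2.6e-07) and 1.16 ± 0.08 (adjusted p = 1.2e-10). OCLN, the strand protein occludin, rose in 786-M1A by 0.85 ± 0.18 (adjusted p = 0.00057) and gave 0.01 ± 0.15 in OS-LM1 (adjusted p = 0.96). The median log2 fold change of the list was 0.56 in 786-M1A and 0.01 in OS-LM1, and that of all genes tested 0.035 and -0.014.

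Between the constructs 6 of 28 of these genes were higher and 5 lower with shPAX8-1 in 786-M1A, and 1 of 29 higher and 5 lower in OS-LM1, against 24.2% and 22.9% of all genes in the first line and 12.4% and 16.7% in the second. CRB3 was lower with shPAX8-1 in both lines, at -3.01 ± 0.53 (adjusted p = 0.00052) and -1.14 ± 0.36 (adjusted p = 0.024). In 786-M1A this rested on 0 to 1 counts per library with shPAX8-1 and 4 to 8 with shPAX8-2. CRB3 passed the filter there only through its sgNTC18 libraries, at 39 to 60 counts. In OS-LM1 the 2 groups overlapped, at 0.241 to 1.56 and 1.40 to 3.21 CPM. The other genes with the widest differences in 786-M1A were LSR (-0.99 ± 0.23), PARD6B (0.73 ± 0.17) and MPP5 (0.69 ± 0.18), with adjusted p from 0.0031 to 0.0062, and in OS-LM1 AMOTL2 (-0.50 ± 0.09, adjusted p = 0.00046). The interaction passed for 2 upward, JAM2 (1.13 ± 0.37, adjusted p = 0.022) and MARVELD2 (0.90 ± 0.24, adjusted p = 0.0073), and for 5 downward of 31, among them PARD6B (-0.76 ± 0.26, adjusted p = 0.029) and MPP5 (-0.61 ± 0.22, adjusted p = 0.038). In OS-LM1 JAM2 rested on few counts, 7 to 21 per library with shPAX8-1 and 3 to 18 with shPAX8-2. Over all genes 12.7% passed upward and 14.5% downward. Between the lines 13 of 31 were higher in OS-LM1 and 6 lower with sgNTC18, against 32.0% and 31.0% of all genes, and 15 and 11 with shPAX8, against 41.7% and 41.5%. MPDZ, a scaffold that binds claudin tails, was at 9.97 to 15.4 CPM in 786-M1A cells with sgNTC18 and at 0 counts in the 4 matching OS-LM1 libraries. PRKCZ, the atypical protein kinase C of the polarity complex, showed the opposite pattern, with 0 counts in 786-M1A and 10.8 to 16.2 CPM in OS-LM1. CXADR had 8 counts or fewer in each 786-M1A library. MPDZ, PRKCZ and CXADR passed the filter through the libraries of only 1 line and so had to differ. Part of the counts between the lines was therefore fixed in advance. OCLN and TJP1 were higher in OS-LM1 with sgNTC18, by 1.75 ± 0.20 (adjusted p = 1.4e-08) and 1.01 ± 0.09 (adjusted p = 1.8e-10).

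Of 38 markers of nephron segments 12 passed the filter on low counts over all libraries. Of 12 genes of the thick ascending limb and distal tubule, the home of CLDN14 and CLDN16, 0 passed the filter in any fit. Of 16 proximal tubule genes 6 passed in 786-M1A and 8 in OS-LM1, and of 10 collecting duct genes 2 and 3. In shPAX8 against sgNTC18 the proximal tubule genes divided into 2 higher and 3 lower in 786-M1A and 4 higher and 3 lower in OS-LM1, in comparisons that called 35.7% and 34.7% of all genes and 36.4% and 37.1%. Their median log2 fold change was -0.38 in 786-M1A and 0.30 in OS-LM1, against 0.035 and -0.014 over all genes. The genes with levels most like those of CLDN2, by Pearson's r of log2 CPM over the 24 libraries among 11848 genes, were PPP5C (0.978), KMO (0.974), TIMM50 (0.971), NOP56 (0.967) and FAM149A (0.967). The libraries fall into groups that set these values: within groups r was 0.051, 0.174, 0.012, 0.219 and -0.435 in the same order. KMO, an enzyme of tryptophan breakdown, shared the difference between the lines, at 10.1 ± 0.742 CPM in 786-M1A and 58.8 ± 5.01 in OS-LM1 cells with sgNTC18, and 1.37 to 1.44 and 7.16 to 10.6 on average with shPAX8.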

How the data were processed

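RNA-seq of 24 libraries was analysed. The authors mapped reads to hg38 with RSEM and bowtie2, whose versions and annotation release are not given in the sources used here, and deposited expected counts and TPM per gene, without further normalization. The library kit is KAPA Stranded mRNA-seq per the labels and Lexogen per the study's methods. Expected counts were rounded, filtered (filterByExpr), normalized by TMM and tested with edgeR 4.0.16 in R 4.3.3 (robust quasi-likelihood test, Benjamini-Hochberg adjustment over all genes tested, adjusted p under 0.05). SE is the absolute log2 fold change over the square root of F. Comparisons within a line used its 12 libraries, and those between lines all 24. CPM used TMM over 24 libraries. The procedure was tested on simulated data. Alternatives were DESeq2 1.42.0 and its size factors, no filter beyond 1 count, a replicate block, each library left out, an adjusted p under 0.01, removal of the GC trend (87.5% of genes had a GC value), only some libraries, and CPM without TMM. For comparisons using all 24 libraries, the split of 786-M1A shPAX8-1 replicates was added after seeing the data. The FPKM values that the authors deposited beside them (RSEM) were not used. The members, lists and tests were chosen with earlier results of these data known. Named beside the 10 claudins are PAX8, OCLN, TJP1, the 5 genes most correlated with CLDN2 (mean log2 CPM of at least 1), and in each comparison up to 2 of the other tight junction genes that passed the threshold with the widest change each way. Some genes that this rule names are not reported here. CLDN6, CLDN9, CLDN15, CLDN19 and CLDN23, and the partners CDK14 and GTPBP10, were named after their values were seen.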

Additional observations from a re-analysis of the deposited data

Results flagged for a closer look

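In 3 of 60 groups of 4 libraries, counting each of the 10 claudin genes in each of the 6 groups, 1 library lay apart from the others by Dixon's criterion, which chance gives in about 1 of 20 groups, or 3 here. CLDN2 was at 437.6 CPM in OS-LM1 cells with sgNTC18, replicate 1, against 389.6 to 391.0 in the other libraries. CLDN10 was at 0.341 CPM in 786-M1A cells with shPAX8-2, replicate 1, against 0 to 0.0540. CLDN11 was at 0.0401 CPM in OS-LM1 cells with shPAX8-1, replicate 3, against 0.228 to 0.265. The last 2 rest on 6 counts or fewer in the library or its neighbours.

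The difference between shPAX8-1 and shPAX8-2 was not the same in the lines for CLDN1 (OS-LM1 minus 786-M1A, log2 -1.27) and CLDN12 (-0.92), by the interaction test of edgeR. PAX8 had an interaction in the opposite direction (1.16), with a log2 difference between the constructs of -1.18 in 786-M1A and -0.05 in OS-LM1, and its part in these differences was not tested.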

How the results depend on the processing

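All 24 libraries have 4 replicates a group, and values under about 20 counts are limited by counting error. Among them are CLDN2 in 786-M1A cells with shPAX8 and CLDN3, CLDN7, CLDN10, CLDN11 and CLDN16 there. CLDN14 in 786-M1A cells with shPAX8-2, at 14 to 17 counts, is another. In OS-LM1 cells with shPAX8 the lowest libraries of CLDN14 are too, at 15 counts with shPAX8-1 and 12 with shPAX8-2. The number of claudin genes called between constructs, between lines and in the interaction stayed within 1.5 times in 89 of 94 alternative fits. Between lines the number includes CLDN7 and CLDN10, which passed the filter through OS-LM1 libraries only and had to differ. Part of this stability was therefore fixed in advance. Between constructs in 786-M1A it went from 4 to 2 at an adjusted p under 0.01 and with both constructs' 8 libraries only, where CLDN2 did not pass the filter, and in OS-LM1 from 2 to 1 at an adjusted p under 0.01. Leaving out each library in turn gave 2 to 4 genes in 786-M1A, with 2 without shPAX8-2 replicate 3, where CLDN2 and CLDN4 dropped out, and 1 to 3 in OS-LM1, with 1 without shPAX8-1 replicate 2, where CLDN1 dropped out. The cause was not tested.

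Of 779 log2 fold changes of single claudin genes under an alternative, 734 kept their direction and side of the threshold, 17 lost the call, 10 gained it and 18 turned sign, each of the last with no call in the main fit. With the GC trend removed these were CLDN16 between constructs in 786-M1A (-0.098), CLDN3 (0.32) and CLDN14 (0.16) between lines with shPAX8, and CLDN16 in the interaction (0.10). With replicates 1 and 2 of 786-M1A shPAX8-1 only, CLDN14 between lines with shPAX8 gave 0.076, and with replicates 3 and 4 only CLDN7 in the interaction gave 3.46. With single libraries left out, the ranges between constructs in OS-LM1 were -0.074 to 0.20 for CLDN4, -0.052 to 0.17 for CLDN7 and -0.088 to 0.38 for CLDN16. They were -0.16 to 0.068 for CLDN14 between lines with shPAX8, and in the interaction -0.095 to 2.37 for CLDN10 and -0.49 to 0.09 for CLDN16. CLDN1 and CLDN12 in the interaction kept their call in all 24 alternatives. CLDN2 between the lines kept its call in all 14 alternatives with sgNTC18 and all 24 with shPAX8.

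The labels give same-numbered libraries nothing in common but the number. Between the shPAX8 groups of 786-M1A their deviations correlated at 0.17 on average (0.037 to 0.271). Libraries with different numbers there gave -0.057 on average (-0.365 to 0.312). Elsewhere same-numbered libraries gave averages between -0.088 and 0.033. Whether same-numbered libraries were handled together was not tested. With the replicate block the counts of claudin genes called were 4 and 2 between constructs in 786-M1A and OS-LM1, 7 and 7 between lines and 2 in the interaction, the numbers found without it. Group levels of the 10 genes moved by less than 1 SD with DESeq2 size factors or without TMM, and the counts for the other tight junction genes and the nephron segment genes stayed within 1.5 times with DESeq2 and its size factors.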
